A study of Mus musculus with 14 samples.

Results

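The Hox genes and the T-box and Pitx genes that pattern the limbs and trunk were examined in 14 mammary tumors of PyMT mice. The members were chosen by name, as every symbol made of Hox, a cluster letter from a to d and a number, together with Tbx15, Tbx4, Tbx5 and Pitx1. Of 43 annotated mouse genes that this rule covers, 31 were in both count tables (29 Hox genes, Tbx5 and Tbx15), out of 18233 genes in all. The other 10 Hox genes (Hoxa11, Hoxa13, Hoxb1, Hoxb13, Hoxc11, Hoxc12, Hoxd1, Hoxd11, Hoxd12 and Hoxd13), Tbx4 and Pitx1 were not analysed here. Tbx15 was added because its level had been noticed in these same tumors, so its values are given as a description, without a test.

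Lats1 and Lats2 are kinases of the Hippo pathway. One experiment held 4 Lats2-CKO PyMT tumors and 3 WT-PyMT tumors, and the other held 4 Lats1-CKO PyMT tumors and 3 WT-PyMT tumors. All mice carried the polyomavirus middle T antigen under the MMTV promoter, a transgene that drives tumors of the mammary epithelium. In CKO mice, Cre expressed in the mammary gland removed an exon of Lats2 or Lats1. The controls were nondeleted littermates, each library was 1 tumor, and the labels give neither the age of the mice nor the gland from which a tumor was taken. By histology, 5 of the 8 CKO tumors were carcinomas, 2 were adenomas and 1 was an adenosquamous carcinoma, whereas 2 of the 6 WT-PyMT tumors were carcinomas and 4 were adenomas.

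Hox genes encode homeodomain transcription factors that lie in 4 chromosomal clusters, and their order along a cluster follows the order of the body regions in which they are switched on in the embryo. Low-numbered genes mark anterior regions and high-numbered genes mark posterior ones, and fibroblasts of adult skin keep much of this pattern. In the GRCm38 annotation the Hoxa, Hoxb, Hoxc and Hoxd clusters lie on chromosomes 6, 11, 15 and 2, with Hoxc8 at chr15:102990607-102994111 and Hoxc10 at chr15:102966796-102971893, and Tbx15 lies at chr3:99240381-99354259. Tbx5 acts in the forelimb field, and Tbx4 and Pitx1 act in the hindlimb field. Tbx15 acts in the skeleton, in the patterning of dorsal and ventral skin and in fat depots. Mouse mammary glands form in pairs from the neck to the groin, so that Hox levels bear on the question of front and rear glands. In bulk RNA, fewer cells of a type and less RNA per cell cannot be told apart.

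The upstream windows of Hoxa7 and Hoxd3 are shown because these genes had the smallest p-values among the members between carcinomas and adenomas. They were picked after their values were seen. Each window runs from 250 bases before to 50 bases after a RefSeq start on GRCm38.p6, and capitals mark TTTATG, the sequence bound by Cdx factors, which regulate Hox genes in the embryo. Both strands were searched.
Hoxa7, chr6:52218524-52218823, minus strand: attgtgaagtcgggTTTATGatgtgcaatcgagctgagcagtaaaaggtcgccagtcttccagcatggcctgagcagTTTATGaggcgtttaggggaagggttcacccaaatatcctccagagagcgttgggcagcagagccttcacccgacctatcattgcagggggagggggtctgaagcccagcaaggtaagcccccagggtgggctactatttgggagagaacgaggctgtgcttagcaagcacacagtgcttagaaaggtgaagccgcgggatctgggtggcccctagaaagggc
Hoxd3, chr2:74711743-74712042, plus strand: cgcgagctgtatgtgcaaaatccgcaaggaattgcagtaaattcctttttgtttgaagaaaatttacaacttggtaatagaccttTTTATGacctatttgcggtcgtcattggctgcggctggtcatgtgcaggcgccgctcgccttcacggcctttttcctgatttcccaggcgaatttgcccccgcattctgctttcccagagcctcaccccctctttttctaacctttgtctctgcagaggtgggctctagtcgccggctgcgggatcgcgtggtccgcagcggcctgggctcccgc
Hoxa7 held 2 matches and Hoxd3 held 1. TTTATG occurred in 4 of the 16 windows available for 15 members (those of Hoxa7, Hoxb8, Hoxd3 and Hoxd4) and in 11.9% of all 32851 windows. These matches describe the letters only.

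Library totals ranged from 18593864 to 31909282 counts, and 3 counts, the limit set by a count of 0, corresponded to 0.0933 to 0.155 CPM (counts scaled to library size by TMM). Lats1 was at 32.9 to 38.3 CPM in Lats1-CKO tumors, against 108 to 128 CPM in their WT-PyMT controls. Lats2 was at 8.26 to 32.5 CPM in Lats2-CKO tumors, against 23.0 to 53.3 CPM in their controls. The highest Lats2-CKO value, 32.5 CPM, was in the library labelled Lats2-CKO 1, which lay within the WT-PyMT range. Luminal markers (6 of 6 measured) summed to 1001 to 4496 CPM over the 14 libraries. Adipocyte markers (8 of 8) summed to 21.4 to 412 CPM in Lats2-CKO tumors, against 136, 5822 and 7046 CPM in WT-PyMT tumors, and to 19.5 to 697 CPM in Lats1-CKO tumors, against 684 to 1681 CPM in WT-PyMT tumors. Fibroblast markers (8 of 8) summed to 319 to 1021 CPM in Lats2-CKO tumors, against 410, 753 and 2791 CPM in their controls.

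Tbx15 was by far the most abundant member, with a mean of 69.4 CPM over the 14 libraries and 18.5 CPM per kilobase of exon, against 1.08 for Hoxc8, the highest Hox gene on that scale. Lats1-CKO tumors 14, 18, 21 and 27 had 279.6, 244, 86.0 and 138 CPM of Tbx15, against 11.1, 10.6 and 4.40 CPM in WT-PyMT tumors 17, 20 and 22. The groups did not overlap, and every Lats1-CKO tumor lay above every control, as was so of 4.88% of all genes. The means were 187 ± 90.3 CPM in Lats1-CKO tumors (SD, n = 4) and 8.71 ± 3.74 CPM in WT-PyMT tumors (SD, n = 3). Lats2-CKO tumors 1, 7, 8 and 16 had 129, 9.14, 17.4 and 3.14 CPM, against 4.71, 26.5 and 7.55 CPM in WT-PyMT tumors 1, 2 and 14. These groups overlapped, with only the library labelled Lats2-CKO 1 far above the rest. Without it, the Lats2-CKO values ran up to 17.4 CPM.

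**Figure D1:**
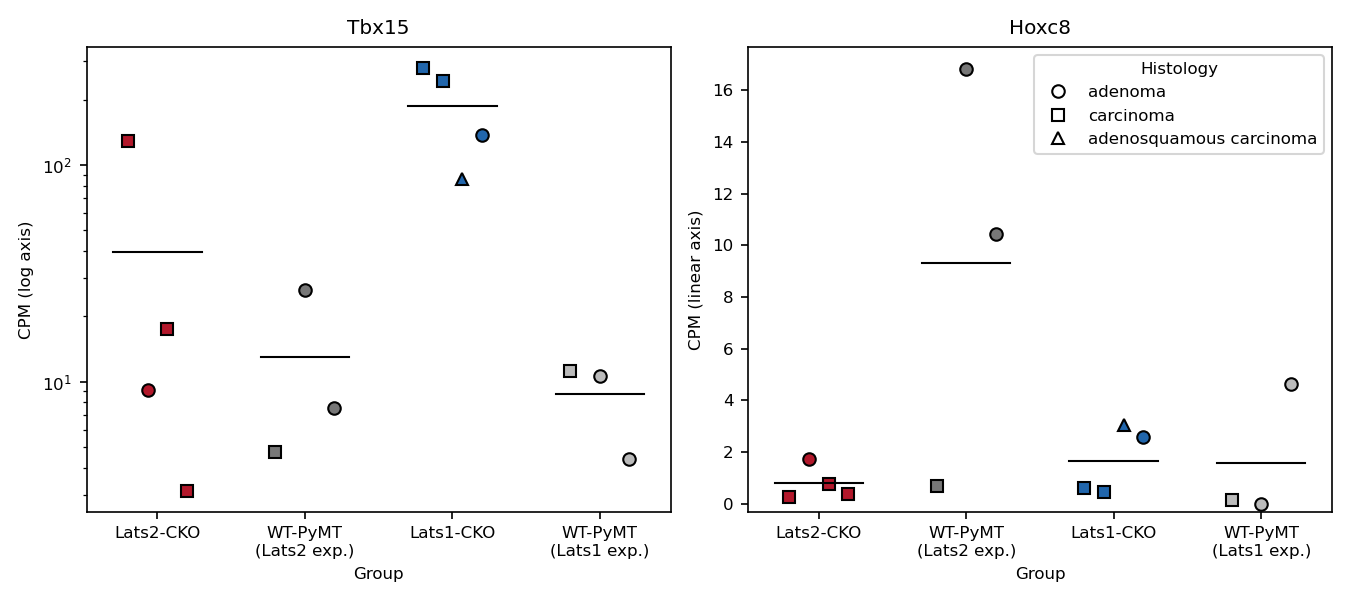
Tbx15 on a log axis and Hoxc8 on a linear axis, in CPM per tumor, with the group mean as a line and the histology as the symbol. The 4 Lats1-CKO tumors lie between 86.0 and 279.6 CPM for Tbx15, above their controls at 4.40 to 11.1 CPM, and Hoxc8 is highest in 2 WT-PyMT adenomas.

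The forelimb gene Tbx5 was close to the limit of detection in every library. It was at 0.0334 to 0.138 CPM in Lats2-CKO tumors, against 0.0829 to 0.325 CPM in WT-PyMT tumors, and at 0 to 0.234 CPM in Lats1-CKO tumors, against 0.254 to 0.448 CPM in WT-PyMT tumors. At these levels no order of tumors by forelimb character could be read.

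Hox transcripts were scarce. Of the 31 members, 9 reached a mean of 1 CPM in each experiment, Tbx15 among them. The summed Hox level was 6.87 to 19.98 CPM in Lats2-CKO tumors, against 4.98, 60.4 and 80.3 CPM in WT-PyMT tumors. In the other experiment it was 10.1 to 32.7 CPM in Lats1-CKO tumors, against 14.8 to 43.0 CPM in WT-PyMT tumors. The groups overlapped in both experiments. The 8 members with a mean of at least 1 CPM over all libraries varied widely among tumors of 1 group, with a within-group SD of 1.07 to 2.22 on the log2 CPM scale, against a median of 0.343 and a 90th percentile of 1.181 over 13920 genes.

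**Figure D2:**
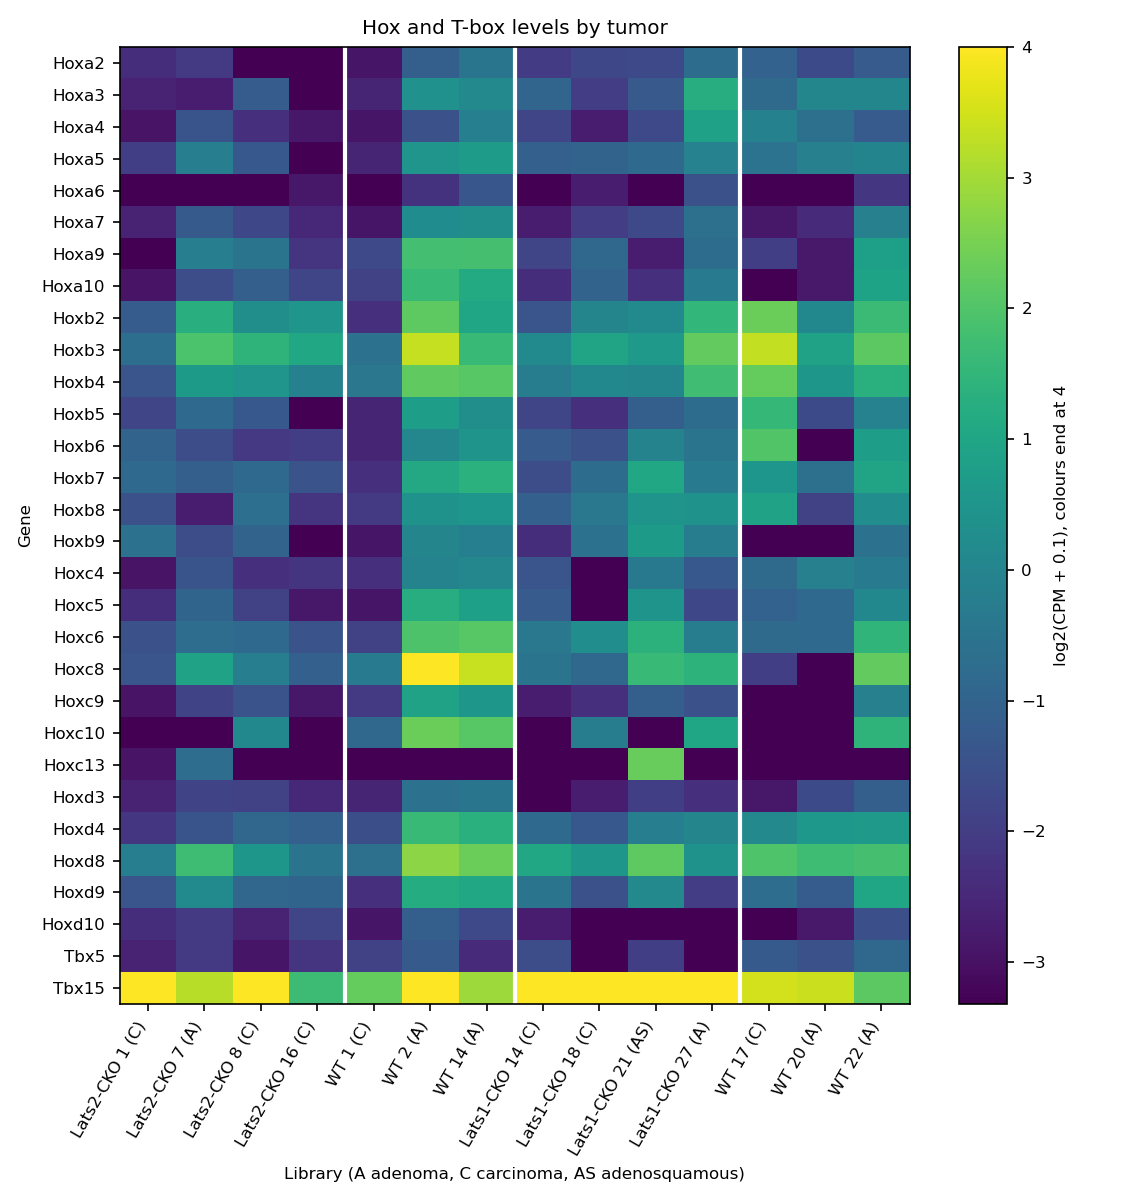
Levels of 30 members by tumor, as log2(CPM + 0.1), with white lines between groups and each CKO group left of its controls. WT-PyMT adenomas 2 and 14 are bright over most Hox genes, while WT-PyMT carcinoma 1 of the same group is dark.

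Hoxc10, the highest-numbered Hoxc gene that reached 1 CPM, was counted in 7 of the 14 libraries, in some tumors and not in others within 3 of the 4 groups. Hoxd9, another posterior gene, was counted in all 14 libraries. Lats2-CKO tumors 1, 7 and 16 had 0 counts and tumor 8 had 0.969 CPM, against 0.446, 5.06 and 4.15 CPM in WT-PyMT tumors 1, 2 and 14. Lats1-CKO tumors 14 and 21 had 0 counts, tumor 18 had 0.761 CPM and tumor 27 had 1.92 CPM, against 0, 0 and 2.61 CPM in WT-PyMT tumors 17, 20 and 22. Hoxc10 was counted in 1 of 4 Lats2-CKO tumors, against 3 of 3 of their controls, and in 2 of 4 Lats1-CKO tumors, against 1 of 3 of theirs. By histology it was counted in 3 of 7 carcinomas and in 4 of 6 adenomas.

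Tumors without Hoxc10 had counts of other Hox genes. Set against Hoxd8, a gene of the middle of its cluster counted in every library, Hoxc10 made 35.7 to 60.3% of their joint counts in the 7 tumors that had it. In the other 7 it made 0%, with upper limits of 3.73 to 20.6% (exact Clopper-Pearson interval, 95%, counting error only). The pair was chosen after the values were seen. WT-PyMT carcinoma 17 had no Hoxc10, Hoxc9, Hoxb9 or Hoxa10 counts, although its Hoxb3 level was 9.92 CPM, close to the highest of all tumors. It did have 13 counts of Hoxd9 and 4 of Hoxa9, so that group 9 made 1.72% of its Hox counts. WT-PyMT adenoma 20 likewise had 0 counts of Hoxc8, Hoxc9, Hoxc10 and Hoxb9 with Hoxd8 at 3.22 CPM, and it had 8 counts of Hoxd9 and 1 each of Hoxa9, Hoxa10 and Hoxd10. Because the gland of origin is not labelled, whether these tumors came from front or rear glands was not tested.

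By paralog group, genes 1 to 3 made 31.3 to 44.8% of the summed Hox counts in Lats2-CKO tumors, against 12.6 to 21.6% in WT-PyMT tumors, and the groups did not overlap. Genes 4 to 8 made 42.9 to 52.0% in Lats2-CKO tumors, against 57.6 to 64.1% in WT-PyMT tumors. Genes 10 to 13 made 2.26 to 9.88% in Lats2-CKO tumors, against 10.5 to 13.1% in WT-PyMT tumors, and the Hoxc cluster made 10.4 to 19.3%, against 31.7 to 38.0%. These are shares and not levels. The summed level of genes 1 to 3 was 2.46 to 6.51 CPM in Lats2-CKO tumors, against 0.893, 7.59 and 17.3 CPM in WT-PyMT tumors, and these groups overlapped. In the Lats1 experiment the ranges overlapped, with genes 1 to 3 at 11.7 to 38.6% in Lats1-CKO tumors, against 21.99 to 41.0% in WT-PyMT tumors. Genes 10 to 13 reached 16.2% in Lats1-CKO 21, nearly all of it Hoxc13, and were at 0% and 0.571% in WT-PyMT tumors 17 and 20.

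**Figure D3:**
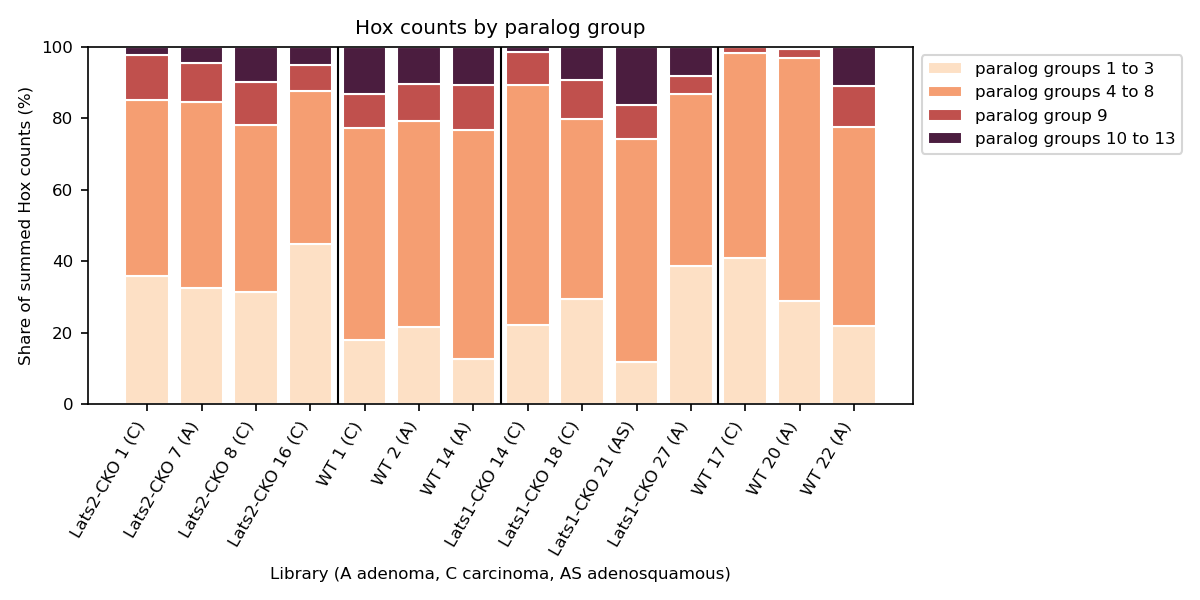
Share of each tumor's summed Hox counts, in percent, taken by paralog groups 1 to 3, 4 to 8, 9 and 10 to 13, with black lines between groups. Groups 1 to 3 take 31.3 to 44.8% in Lats2-CKO tumors and 12.6 to 21.6% in their controls, and groups 10 to 13 are at 0% and 0.571% in WT-PyMT 17 and 20.

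In the comparison of Lats2-CKO with WT-PyMT tumors, none of the 30 tested members passed edgeR's adjusted p of 0.05 (lowest adjusted p = 0.688), as did none of 17702 genes (0% called). At an unadjusted p under 0.05, 7 members were lower and 0 higher, which is 23.3% of the members, against 5.91% of all genes lower and 208 of 17702 genes higher. Fitted values were negative for 28 members, against 50.3% of all genes, with a median log2 fold change of -1.91 over the members and -0.003 over all genes. Hoxc8, which specifies thoracic vertebrae in the mouse, was at 0.280, 1.75, 0.768 and 0.378 CPM in Lats2-CKO tumors 1, 7, 8 and 16, against 0.687, 16.8 and 10.4 CPM in WT-PyMT tumors 1, 2 and 14. Both WT-PyMT adenomas were high, and WT-PyMT carcinoma 1 lay within the Lats2-CKO range. Its log2 fold change was -3.56 ± 1.07 (SE), with an edgeR adjusted p of 0.688, and DESeq2 gave an adjusted p of 0.0496, the only member that tool called, where it called 0.779% of all genes lower and 0.11% higher.

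Hoxc6, a neighbor of Hoxc8 expressed in the embryonic mammary rudiment, was at 0.249, 0.508, 0.468 and 0.265 CPM in Lats2-CKO tumors 1, 7, 8 and 16, against 0.172, 3.76 and 4.19 CPM in WT-PyMT tumors 1, 2 and 14. WT-PyMT 1 lay below every Lats2-CKO tumor. The other 5 members under the unadjusted threshold were Hoxd4, Hoxa10, Hoxc9, Hoxc4 and Hoxc5, with log2 fold changes between -3.08 and -2.29, each below 1 CPM on average. Hoxb2, Hoxb3, Hoxb4, Hoxc10 and Hoxd8 had log2 fold changes of -0.76, -1.03, -1.67, -3.68 and -1.44. No member separated the 2 groups of tumors without overlap, whereas 2.26% of all genes were lower, and 1.43% higher, in every Lats2-CKO tumor than in every control.

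These counts rested on single tumors. The number of members lower at an unadjusted p under 0.05 was 1 without WT-PyMT 2 (6.87% of all genes in the same fit), 4 without WT-PyMT 14 (383 of 17702 genes), 2 without Lats2-CKO 16 (3.71%) and 20 without WT-PyMT 1 (12.2%). It was 5 without the library labelled Lats2-CKO 1 (2.99%). With histology, the mean log2 CPM of the adipocyte markers or that of the fibroblast markers as a covariate, 0 members were lower. The share of all genes was 0.61%, 0.249% and 0.537%. With the adipocyte covariate the log2 fold changes of Hoxc8 and Hoxc9 were -0.20 and -0.15, and those of Hoxa10, Hoxc4, Hoxc5, Hoxc6 and Hoxd4 lay between 0.07 and 0.93. With histology as the covariate all 7 were negative (-1.73 for Hoxc8), as they were with the fibroblast covariate (-1.97 for Hoxc8). The 2 WT-PyMT tumors with high Hox levels, 14 and 2, were the adenomas with adipocyte sums of 5822 and 7046 CPM. Other markers were high in WT-PyMT 14, in WT-PyMT 2 or in both. Endothelial markers summed to 26.5 to 93.3 CPM in Lats2-CKO tumors, against 294, 200.4 and 24.6 CPM in WT-PyMT tumors 14, 2 and 1. WT-PyMT 14 also held T and NK cell markers at 1280 CPM and B and plasma cell markers at 1266 CPM, and it had the lowest luminal sum, 1001 CPM. WT-PyMT 2 held 11.5 and 24.3 CPM of these lymphocyte lists, within the Lats2-CKO ranges of 5.01 to 43.0 and 1.15 to 137.6 CPM. Fibroblast markers were at 2791 CPM in WT-PyMT 2, but at 753 CPM in WT-PyMT 14, within the Lats2-CKO range of 319 to 1021 CPM. In the Lats1 experiment WT-PyMT 22, whose Hoxc8 level was the highest, had 281 and 373 CPM of the same lymphocyte lists. The part of these cell types in the Hox levels was not tested.

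In the comparison of Lats1-CKO with WT-PyMT tumors, again no member passed (lowest edgeR adjusted p = 0.431), whereas 4 of 17763 genes did (0.0225%). DESeq2, which gave an adjusted p for 22 of the 30, called no member, against 2.02% of all genes lower and 1.94% higher. At an unadjusted p under 0.05, 1 member was lower and 0 higher, which is 3.33% of the members, against 6.58% of all genes lower and 4.76% higher. That gene was Hoxb5, with a log2 fold change of -2.16 ± 0.89 (SE, edgeR adjusted p = 0.431). Fitted values were negative for 23 members, against 50.4% of all genes, with a median of -0.54. Hoxd4 and Tbx5 were lower in every Lats1-CKO tumor than in every control. These 2 of 30 tested members are a share close to the 6.47% of all genes that were so, with 4.88% higher in every Lats1-CKO tumor. For Tbx5 the gap was between 5 counts in Lats1-CKO 14 and 6 counts in WT-PyMT 20.

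The number lower was 7 without Lats1-CKO 27 (5.84% of all genes in the same fit), 3 without WT-PyMT 20 (5.65%) and 0 without WT-PyMT 17, WT-PyMT 22, Lats1-CKO 14 or Lats1-CKO 18 (3.96 to 5.82%). The number higher was 4 without WT-PyMT 22 (3.73%) and 1 without Lats1-CKO 14 (4.7%) or Lats1-CKO 21 (6.15%). Hoxc8 was at 0.609, 0.456, 3.04 and 2.57 CPM in Lats1-CKO tumors 14, 18, 21 and 27, against 0.159, 0 and 4.64 CPM in WT-PyMT tumors 17, 20 and 22. Hoxc6 was at 0.656, 1.12, 2.53 and 0.757 CPM in the same Lats1-CKO tumors, against 0.476, 0.466 and 2.69 CPM in the controls. Both genes overlapped between groups, with log2 fold changes of 0.06 ± 1.495 and 0.06 ± 0.80 (SE).

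In the Lats1 experiment the anterior Hoxb genes gave another order of tumors than Hoxc8, with WT-PyMT 17 highest. In the Lats2 experiment the orders were similar. There Hoxb3 and Hoxb4 were highest in WT-PyMT 2 and lowest in the library labelled Lats2-CKO 1, as was Hoxc8. Hoxb3, active in the hindbrain and neck of the embryo, was at 1.03, 1.83, 1.44 and 4.59 CPM in Lats1-CKO tumors 14, 18, 21 and 27, against 9.92, 1.78 and 4.36 CPM in WT-PyMT tumors 17, 20 and 22. It was at 0.529, 3.74, 2.64 and 2.0 CPM in Lats2-CKO tumors 1, 7, 8 and 16, against 0.584, 10.1 and 2.94 CPM in WT-PyMT tumors 1, 2 and 14. Hoxb2 and Hoxb4 ranged from 0.103 to 5.04 CPM and from 0.280 to 4.76 CPM over the 14 tumors, with overlap between groups in both experiments. Hoxd8 was the steadiest in the WT-PyMT tumors of the Lats1 experiment, at 3.85, 3.22 and 3.46 CPM, while the Lats1-CKO tumors 14, 18, 21 and 27 had 1.97, 1.37, 4.49 and 1.26 CPM.

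The difference between the 2 genotype effects, Lats1-CKO less Lats2-CKO, was also tested over the 14 tumors. No member passed (lowest edgeR adjusted p = 0.913), while 3 of 17232 genes did (0.0174%). DESeq2, which gave an adjusted p for only 16 of the 30, called no member, against 0.0645% of all genes lower and 0.0502% higher. At an unadjusted p under 0.05, 1 member was higher and 0 lower, against 1.97% of all genes higher and 1.2% lower. Fitted values were positive for 24 members, and 43.5% of all genes were negative. That gene was Hoxc6, with a difference of 2.96 ± 1.30 on the log2 scale (SE, edgeR adjusted p = 0.913). The number of members higher at that threshold was 8 without WT-PyMT 22 (3.49% of all genes in the same fit), 4 without WT-PyMT 1 (6.43%), 2 without Lats2-CKO 8 (1.57%) and 0 without WT-PyMT 2, WT-PyMT 14, WT-PyMT 17, WT-PyMT 20, Lats2-CKO 16, Lats1-CKO 18 or Lats1-CKO 21.

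**Figure D4:**
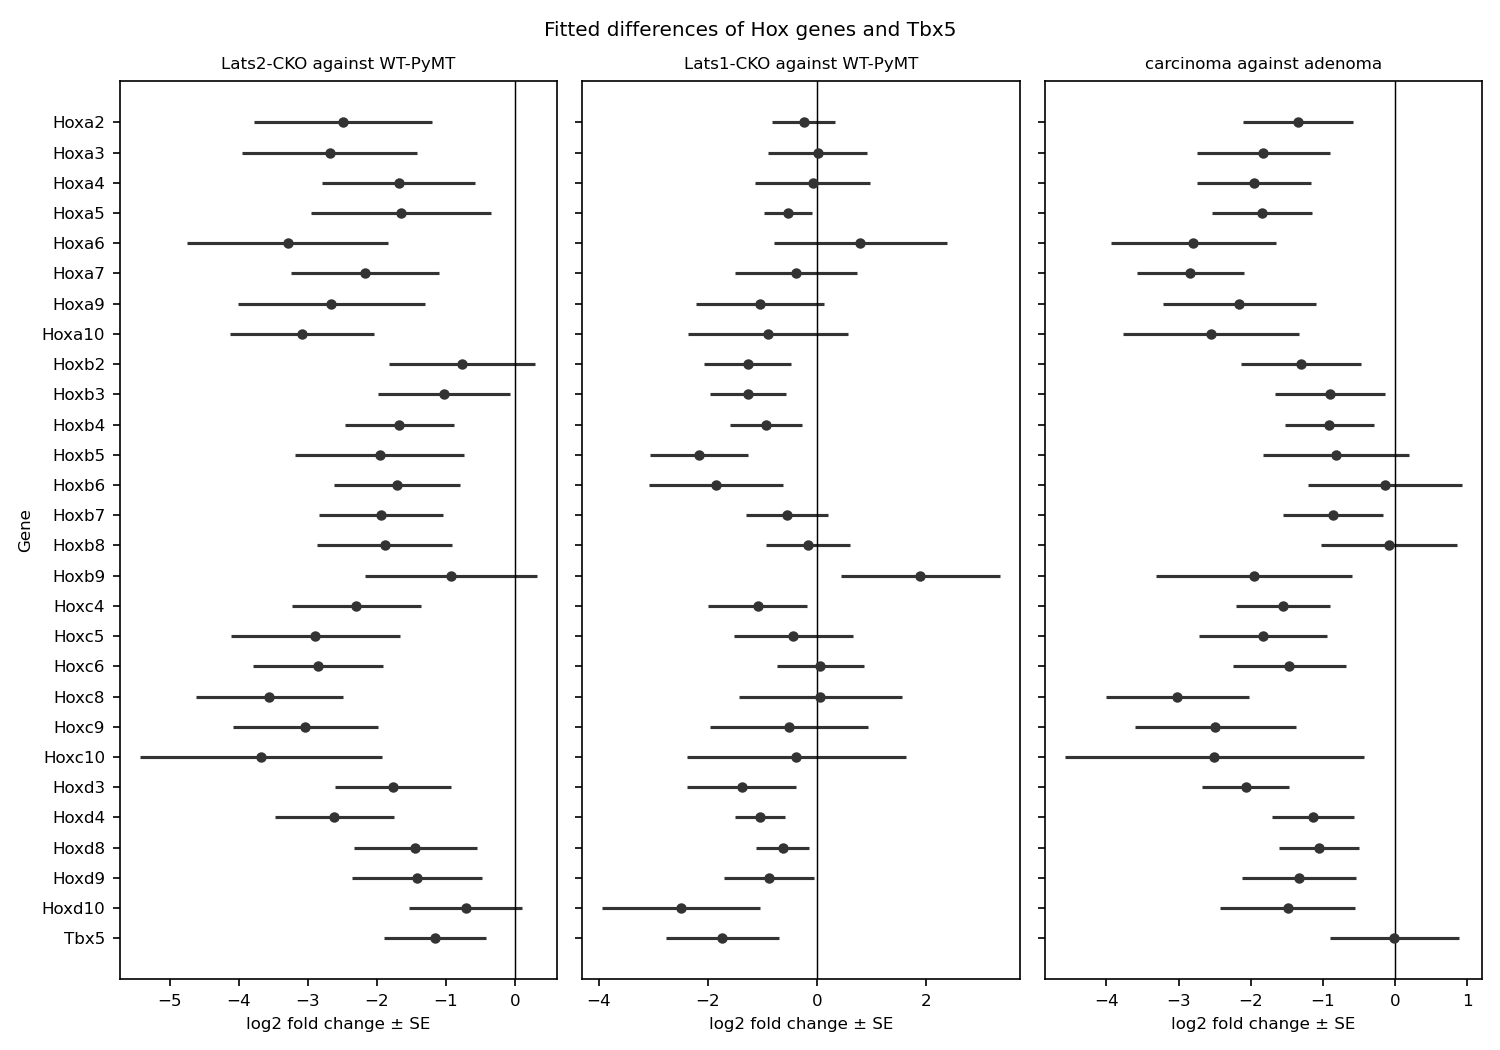
Fitted log2 fold changes with standard errors for 27 Hox genes and Tbx5, in Lats2-CKO against WT-PyMT, Lats1-CKO against WT-PyMT and carcinoma against adenoma. Most Lats2-CKO values lie left of 0 (28 of 30 members), 23 of 30 Lats1-CKO members are negative too, with a median of -0.54, and error bars are wide.

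Carcinomas and adenomas were compared within the 4 groups, over 7 carcinomas and 6 adenomas. Of the 30 members, all had negative fitted values, against 57.5% of all genes, but none passed (lowest edgeR adjusted p = 0.828), as did none of 17232 genes (0% called). At an unadjusted p under 0.05, 9 were lower and 0 higher, which is 30% of the members, against 2.94% of all genes lower and 1.6% higher. DESeq2 called 2 of them, Hoxa7 and Hoxc8, with adjusted p-values of 0.0489 and 0.0472, and 0.556% of all genes lower and 0.0936% higher. Hoxa7, a gene of the thoracic region, had a median of 0.0622 CPM in carcinomas (lowest 0.0343, highest 0.200), against 0.685 CPM in adenomas (lowest 0.0847, highest 1.12). Hoxc8 had a median of 0.456 CPM in carcinomas (lowest 0.159, highest 0.768), against 3.61 CPM in adenomas (lowest 0, highest 16.8).

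Hoxd3 had a median of 0.0622 CPM in carcinomas (lowest 0, highest 0.167), against 0.289 CPM in adenomas (lowest 0.101, highest 0.622). All 3 genes overlapped between the histologies. Their log2 fold changes were -2.84 ± 0.74 for Hoxa7, -3.02 ± 0.98 for Hoxc8 and -2.07 ± 0.60 for Hoxd3 (SE). Hoxa4, Hoxa5, Hoxa6, Hoxc4 and Hoxc9 were under the unadjusted threshold too, with values between -2.79 and -1.56, as was Hoxc13, whose counts are given with the hair keratins and whose value rests on Lats2-CKO 7, an adenoma. Without that tumor 8 members were lower (5.19% of all genes). Within the Lats2 experiment alone 9 members were lower (3.01% of all genes), and within the Lats1 experiment alone 2 were (2.49%). The number was 4 without WT-PyMT 1 (1.37%) and 4 with the mean log2 CPM of the fibroblast markers as a covariate (2.08%). With the mean log2 CPM of the adipocyte markers as a covariate it was 0 (0.232%). The log2 fold changes stayed negative, at -1.91 for Hoxa7, -1.83 for Hoxc8 and -1.59 for Hoxd3. The summed adipocyte markers, a measure other than that covariate, had a median of 112 CPM in carcinomas (lowest 19.5, highest 817). In adenomas the median was 1189 CPM (lowest 412, highest 7046).

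Hoxc13, which controls hair keratin genes in the hair follicle, was counted in 3 libraries. It had 94 counts in Lats1-CKO 21, the adenosquamous carcinoma, 11 in Lats2-CKO 7 and 1 in the library labelled Lats2-CKO 1, against 0 counts in all 6 WT-PyMT tumors. The hair keratins Krt31, Krt33a and Krt34 had 149, 149 and 48 counts in Lats1-CKO 21 and 72, 100 and 46 counts in Lats2-CKO 7, against 0 to 2 counts in every other library. Hair follicle markers (7 of 8 in the Lats2 table and 8 of 8 in the Lats1 table) summed to 135 CPM in Lats1-CKO 21 and 38.3 CPM in Lats2-CKO 7, against 1.08 to 12.2 CPM elsewhere. Of this list, Krt25 and Krt27 were also highest in these libraries, but Krt71 and Lhx2 did not follow. Krt71 was at 10.4 CPM in Lats1-CKO 21 and 15.9 CPM in Lats2-CKO 7, against 11.5 CPM in the library labelled Lats2-CKO 1. Lhx2 was at 0.138 CPM in Lats2-CKO 7, against 0.653 CPM in the library labelled Lats2-CKO 1. Markers of other tissues were high in Lats1-CKO 21 and Lats2-CKO 7. Skeletal muscle markers summed to 776 CPM in Lats1-CKO 21 and 2057 CPM in Lats2-CKO 7, epidermis markers to 106.5 CPM in Lats1-CKO 21 and milk genes to 47080 CPM in Lats2-CKO 7. The part of these tissues in the Hoxc13 counts was not tested. A fitted fold change of Hoxc13 is no bound, since most of its libraries were at 0.

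**Figure D5:**
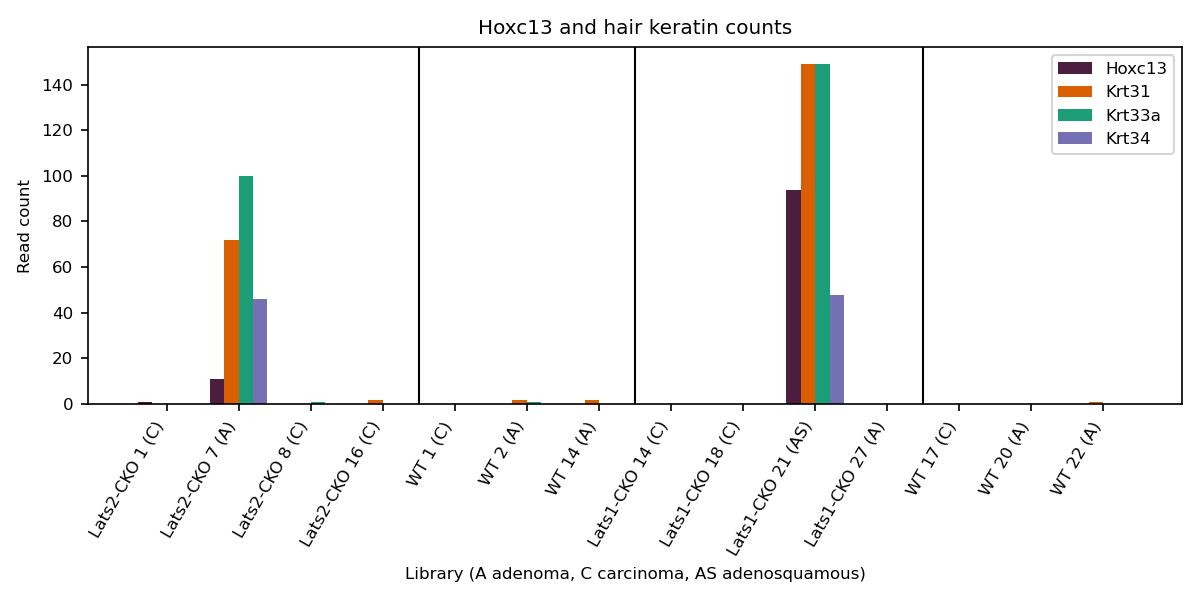
Read counts of Hoxc13 and of the hair keratins Krt31, Krt33a and Krt34 by tumor, with black lines between groups. Only Lats1-CKO 21 (94 Hoxc13 counts) and Lats2-CKO 7 (11) stand out for all 4 genes.

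Genes that work with Hox proteins or set their expression gave few values under the unadjusted threshold, and none passed adjustment in any list. Over all genes that threshold took 5.91% lower in Lats2-CKO tumors, 6.58% lower and 4.76% higher in Lats1-CKO tumors, and 2.94% lower and 1.6% higher in carcinomas, so that 1 gene of 9, 14 or 18 is not a result about a list. Of 9 Hox cofactors, TALE homeodomain proteins that bind DNA with Hox proteins, 1 was lower and 0 higher in Lats2-CKO tumors. Meis2 had a log2 fold change of -2.86 in Lats2-CKO tumors (edgeR adjusted p = 0.688). Of 18 Polycomb and Trithorax genes, which keep Hox genes off or on, 1 was lower in Lats2-CKO tumors (Cbx7, -1.78) and 1 higher in Lats1-CKO tumors (Bmi1, 0.31). Medians of these lists lay between -0.16 and 0.06 in the 2 genotype comparisons, against -0.003 over all genes in each.

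Of 14 genes of the retinoic acid pathway, a signal that turns on anterior Hox genes, 1 was lower (Crabp2, -0.77) and 1 higher (Cyp26b1, 1.85) in Lats1-CKO tumors, and 0 were lower in Lats2-CKO tumors. Among 28 further limb, trunk and placode genes, 22 were measured in the Lats2 experiment, of which 2 were lower (Meox2, -2.31, and Shox2, -1.98), and 23 in the Lats1 experiment, of which 2 were lower (Meox2, -1.58, and Shox2, -0.998) and 2 higher (Gli3, 1.64, and Lmx1b, 1.23). In carcinomas against adenomas, 1 chromatin gene was higher (Kdm6b, 0.27), 1 retinoic acid gene was lower (Aldh1a1, -3.02) and 3 of 22 limb, trunk and placode genes were lower (Emx2, -2.33, Isl1, -3.50, and Meox2, -1.38), none past adjustment. The noncoding RNA Hotairm1, which lies in the Hoxa cluster, had log2 fold changes of 0.40 ± 1.205 in Lats2-CKO tumors and 1.07 ± 0.96 in Lats1-CKO tumors (SE). Since the library kit keeps no strand, its reads and those of genes on the other strand cannot be told apart. Within the clusters, Hoxa3 overlaps Hoxa4, Hoxa5 and Hoxa6, Hoxc5 overlaps Hoxc6, Hoxc8, Hoxc9 and Hoxc10, and Hoxd3 overlaps Hoxd4 in the GRCm38 annotation, so counts of these genes are uncertain.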

How the data were processed

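The deposited tables hold unnormalized read counts for each gene. The authors selected polyadenylated RNA (500 ng of total RNA per tumor), aligned the reads with STAR to mm10 and counted them on RefSeq genes, and the STAR version is not given in the sources used here. They kept genes above a low summed count. All columns were matched to labelled samples. Counts were tested with edgeR 4.0.16 in R 4.3.3 (TMM, quasi-likelihood test, Benjamini-Hochberg adjustment over all genes, threshold 0.05) and, as an alternative, with DESeq2 1.42.0. Levels are CPM with TMM scaling within an experiment, and a prior count of 2 was used for log2 CPM. Genotypes were compared within their experiment, and histology within the 4 groups over 13 libraries. Shares have exact binomial intervals (SciPy 1.17.1). Positions and exon lengths come from GENCODE on GRCm38, and promoter windows from RefSeq on GRCm38.p6. The procedure was tested on simulated counts, with changes placed only in well-counted genes and a small spread between libraries. That test gives no recovery rate for genes as scarce and variable as most members. Members and lists were chosen with earlier results of these data known. Levels are given per tumor or as ranges for Tbx15, Tbx5 and members at 1 CPM or more with an unadjusted p under 0.05. The same holds for the highest-numbered member of each cluster at 1 CPM or more and the 5 most variable ones. Hoxd8 levels are given for the Lats1 experiment only. Hoxc13 and the promoters were added after values were seen. The alternatives changed the tool, scaling, filter, covariates and the libraries included. P-values set a difference between groups against the spread between tumors of a group. Values of some genes are not reported here.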

Additional observations from a re-analysis of the deposited data

Results flagged for a closer look

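Of 60 sets of 4 CKO tumors looked at, 9 held 1 tumor far from the other 3. Chance gives about 1 in 20 for continuous values, a rate that does not hold for low counts: in 4 of the 9 the other 3 tumors had 0 counts, so that any count in the remaining one meets the criterion. In Lats1-CKO 27, Hoxa3 at 2.27 CPM, Hoxa4 at 1.72 CPM and Hoxb4 at 3.28 CPM, each above the other 3 Lats1-CKO tumors. Tbx15 was at 129 CPM in the library labelled Lats2-CKO 1. Hoxc10 was at 0.969 CPM in Lats2-CKO 8, with 0 counts in the other 3 Lats2-CKO tumors. Hoxc13 was at 4.85 CPM in Lats1-CKO 21 and at 0.508 CPM in Lats2-CKO 7. Hoxa6 was at 0.0378 CPM in Lats2-CKO 16 and Hoxd10 at 0.0469 CPM in Lats1-CKO 14, which lie below the level of 3 counts.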

How the results depend on the processing

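No paired analysis was possible because the labels name no litter, and the tumor numbers are not labelled as pairs. The relations of Pitx1, Tbx5 and Hoxc10 across tumors were not run because Pitx1 was not analysed here and Tbx5 was near 0. In Lats2-CKO against WT-PyMT, the number of members lower at an unadjusted p under 0.05 was 7. It was 0 with the fibroblast, adipocyte or histology covariate, 11 with all 14 libraries in 1 fit, and 1 to 20 when 1 tumor was left out. The number higher was 2 with the adipocyte covariate and 1 with histology, against 0, and DESeq2 called 1 at an adjusted p under 0.05, against 0. With the adipocyte covariate the log2 fold changes of Hoxa10, Hoxc4, Hoxc5, Hoxc6 and Hoxd4 were 0.20, 0.28, 0.93, 0.16 and 0.0684, and the cause was not tested. In Lats1-CKO against WT-PyMT, the number lower was 2 with edgeR's expression filter and 0 with each covariate or all 14 libraries in 1 fit, against 1, and the number higher was 1 with the fibroblast or histology covariate and 2 with the adipocyte covariate, against 0. Leaving out 1 tumor gave 0 to 7 lower and 0 to 4 higher. For the difference between genotypes, the number higher was 0 with the fibroblast covariate, against 1, and 0 to 8 with 1 tumor left out. In carcinoma against adenoma, the number lower was 9. It was 14 with DESeq2, which called 2, 4 with the fibroblast covariate, 0 with the adipocyte covariate, 2 in the Lats1 experiment alone (a split chosen after seeing the data) and 4 to 13 with 1 tumor left out. The fitted log2 value of Hoxc13 ran between -4.77 and 0 with 1 tumor left out, and was 0 without Lats2-CKO 7, the only carcinoma or adenoma with more than 1 count. Depth limits any level under about 0.155 CPM.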
